A study of Mus musculus with 8 samples.

Results

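The 8 genes Hmgcs1, Idi1, Fdps, Fdft1, Sqle, Lss, Insig1 and Srebf2 belong to cholesterol synthesis and its control by sterol regulatory element-binding proteins (SREBPs). They were taken by name from the 30445 genes of the deposited table, each matched 1 row, and all 8 passed the filter on low counts, as did 17787 genes in all. The libraries are poly(A)-selected RNA of hearts from C57 mice, 4 labelled Mertk knockdown and 4 labelled wildtype, all taken 8 weeks after transverse aortic constriction (TAC), an operation that narrows the aorta and loads the left ventricle with pressure. Both groups were thus operated, and no unoperated heart was analysed here. The series title concerns MERTK of macrophages, a receptor for the uptake of dying cells. The method and the cells in which Mertk was lowered, and the age and sex of the mice, are not stated in the labels. Nothing states that each replicate was a separate mouse, so p-values measure only the spread between these libraries, which may in part be technical.

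Cells build cholesterol from acetyl-CoA. HMG-CoA synthase stands near the head of the mevalonate steps, the isoprenoid steps lead to farnesyl diphosphate, and squalene synthase, squalene epoxidase and lanosterol synthase lead into the sterols. SREBP2, the product of Srebf2, is made as a membrane protein of the endoplasmic reticulum, where SCAP escorts it to the Golgi for cleavage when sterols are low. INSIG1 holds SCAP and SREBP2 back when sterols are plentiful, and Insig1 is itself an SREBP target, so that the gene takes part in a feedback loop. The liver is a main site of synthesis in the body, and the pathway is also known from macrophages, in which oxysterols and interferons act on it.

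Total counts ran from 63378755 to 68762911 in the libraries labelled Mertk knockdown and from 59287621 to 71571173 in wildtype. Levels are CPM, counts relative to library size, scaled by trimmed mean of M-values (TMM), and 3 counts, the most that a count of 0 allows, correspond to 0.0407 to 0.0520 CPM; this covers counting error only. Mertk stood at 12.8, 12.3, 10.6 and 11.8 CPM in the libraries labelled Mertk knockdown, against 11.0, 10.4, 10.5 and 12.3 CPM in wildtype (log2 fold change 0.10, SE 0.11, adjusted p = 0.766 by edgeR). It was not lower in the labelled libraries, and directions below follow the labels alone. Summed cardiomyocyte markers (10 genes) took 51059 to 57877 CPM in the labelled libraries and 37674 to 48791 CPM in wildtype, with no overlap. The sample titles name the heart and no chamber. Summed smooth muscle markers did not overlap in the opposite direction (2257 to 2659 CPM in the labelled libraries, 2748 to 3058 CPM in wildtype). Gene by gene they were mixed: of 7 smooth muscle markers, 4 had a log2 fold change above 0 and 3 below, with a median of 0.04. Atrial markers ranged from 205 to 2041 CPM in the labelled libraries and from 341 to 2356 CPM in wildtype. The part of these differences in the results below was not tested, other than by an atrial covariate. Summed hepatocyte markers (16 genes, all 16 with counts) took 199 to 276 CPM in the 4 labelled libraries and 270 CPM in wildtype replicate 1, but 9.82 to 18.0 CPM in wildtype replicates 2 to 4. Wildtype replicate 3 alone held 10.6 CPM of the adipocyte gene Adipoq, which was at 0.422 CPM or less in the other libraries.

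The stretches before the genes for the synthase at the head of the pathway, the feedback regulator and the transcription factor are shown here because SREBPs act through such promoters. They are RefSeq sequences of build GRCm38.p6, plus strand, 5′ to 3′, and end before the first base of the deposited gene. Capitals mark the letters TCACNCCAC or CACCCCAC (sterol regulatory element, the second a part of some matches to the first), CACGTG (E-box) and CCAAT (bound by NF-Y), each searched on both strands, so that a minus-strand CCAAT reads ATTGG.
Hmgcs1, chr13:119690101-119690350: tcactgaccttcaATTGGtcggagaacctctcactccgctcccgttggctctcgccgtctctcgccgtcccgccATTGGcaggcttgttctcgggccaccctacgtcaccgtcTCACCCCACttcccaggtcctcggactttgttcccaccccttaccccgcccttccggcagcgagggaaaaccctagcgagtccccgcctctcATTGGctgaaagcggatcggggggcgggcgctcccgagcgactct
Insig1, chr5:28071162-28071362: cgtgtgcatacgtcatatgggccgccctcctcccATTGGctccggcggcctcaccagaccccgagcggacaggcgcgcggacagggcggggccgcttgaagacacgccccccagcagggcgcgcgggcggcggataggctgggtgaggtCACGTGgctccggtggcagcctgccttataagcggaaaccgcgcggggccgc
Srebf2, chr15:82147019-82147180: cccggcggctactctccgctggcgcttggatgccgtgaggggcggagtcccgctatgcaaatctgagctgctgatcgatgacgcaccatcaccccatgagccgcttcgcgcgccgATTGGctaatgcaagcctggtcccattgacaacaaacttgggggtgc

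Of the 8 genes, 5 had a RefSeq promoter, and Sqle, Fdps and Fdft1 had none in the table used. In the 250 bases before the RefSeq start, Hmgcs1 was the 1 gene of these 5 with the sterol element TCACNCCAC, which 1.05% of 32851 promoters hold, and with CACCCCAC, which 2.58% hold. Insig1 was the 1 gene with an E-box, present in 6.02% of promoters. All 5 held CCAAT, which 33.8% of promoters hold, and all 5 held the GC box GGGCGG, which 32.7% hold. These matches describe the letters of the windows only.

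In the hearts labelled Mertk knockdown, 0 of the 8 genes passed the test across all genes (edgeR quasi-likelihood test, Benjamini-Hochberg adjusted p under 0.05), where 0.647% of all tested genes did. DESeq2 called 1 of the 8, Insig1, higher, where it called 604 of the 30338 genes that it gave a p-value, 268 of them higher. Of the 8, 7 had a log2 fold change above 0 and Fdft1 had one below 0; over all tested genes 49.9% were above 0. The median was 0.21 for the 8 genes and 0.00 for all tested genes. At an unadjusted p under 0.05 there was 1 higher gene, Insig1, and 0 lower ones, where 6.11% of tested genes were higher and 6.32% lower. In these bulk hearts, fewer cells of a type and less RNA per cell cannot be told apart.

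**Figure D1:**
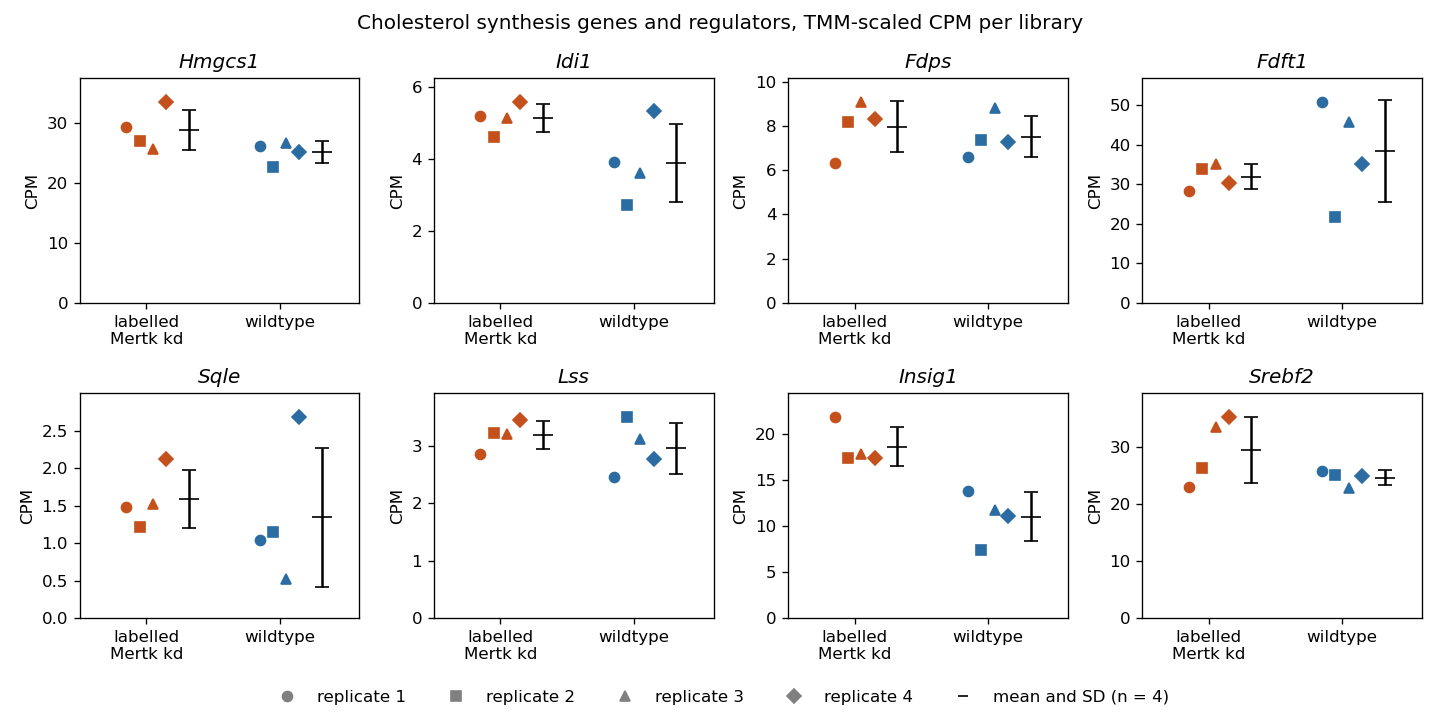
TMM-scaled CPM of the 8 genes in each library, with labelled Mertk knockdown left of wildtype; symbols give the replicate number and the bars the mean and SD of 4 libraries. The groups separate for Insig1, with labelled knockdown at 17.3 to 21.7 CPM and wildtype at 7.42 to 13.7 CPM, and overlap for the other 7 genes.

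Insig1, the membrane protein that retains SCAP and SREBP2 (ENSMUSG00000045294, mm10 chromosome 5, 28071363 to 28078662, plus strand), had the largest difference of the 8. It was at 21.7, 17.4, 17.8 and 17.3 CPM in the libraries labelled Mertk knockdown, against 13.7, 7.42, 11.8 and 11.1 CPM in wildtype. Every labelled library lay above every wildtype one, as for 4.18% of all tested genes in this direction, while 3.9% had every labelled library lower; the wildtype library nearest to them was replicate 1, and wildtype replicate 2 was the lowest. The mean was 18.6 ± 2.13 CPM in labelled knockdown and 11.0 ± 2.64 CPM in wildtype (SD, n = 4 each), a 1.69-fold difference (log2 fold change 0.76, SE 0.17, 95% interval 0.37 to 1.14). It did not pass across all genes by edgeR (adjusted p = 0.104), where it was the 238th smallest p. DESeq2 called it (adjusted p = 0.00423), and edgeR called it without wildtype replicate 1 (adjusted p = 0.0425).

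The log2 fold change of Insig1 was nearer to 0 in fits that took account of the hepatocyte markers. Wildtype replicate 1, which held them, had the most Insig1 of wildtype, at 13.7 CPM, below every labelled library. Without wildtype replicate 2, 3 or 4 alone, each low in these markers, the log2 fold change was 0.61, 0.79 and 0.77. Within the 4 libraries whose hepatocyte markers summed to over 200 CPM, the set planned at first, the log2 fold change of Insig1 was 0.47. Within the 5 over 100 CPM, 4 labelled and 1 wildtype, a set added after seeing the data, it was 0.44. With the hepatocyte score as a covariate it was 0.42 (adjusted p = 0.604 by edgeR). In the fits within these 2 sets, wildtype rests on 1 library, whose spread is taken to be that of the labelled ones. The covariate fit rests largely on the same library. The score, the mean log2 CPM of the markers, was 3.15 to 3.35 in the labelled libraries and 3.23 in wildtype replicate 1. In wildtype replicates 2 to 4 it was −3.12 to −1.18, so the fits are not separate checks. The part of liver transcripts in the result was not tested.

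**Figure D2:**
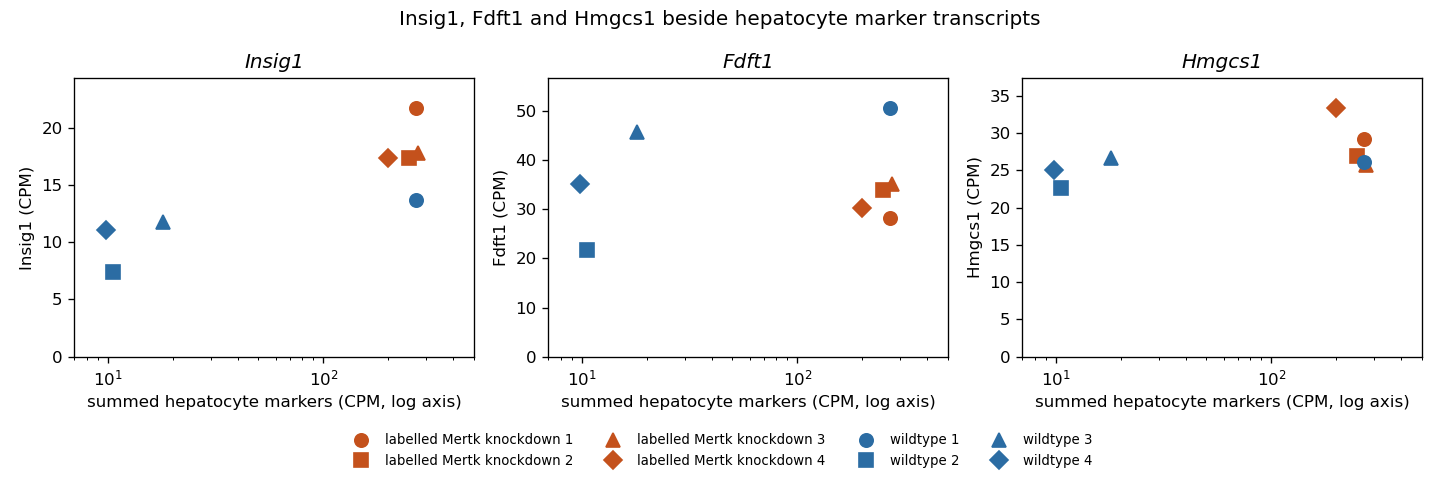
CPM of Insig1, Fdft1 and Hmgcs1 (vertical axes, from 0) against the summed CPM of 16 hepatocyte markers (horizontal log axis), 1 point per library. Wildtype replicate 1 sits among the 4 labelled knockdown libraries on the horizontal axis at 270 CPM, with Insig1 at 13.7 CPM, and the other wildtype libraries lie at 9.82 to 18.0 CPM.

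Srebf2, which encodes SREBP2 (ENSMUSG00000022463, chromosome 15, 82147181 to 82205379, plus strand), did not pass. It was at 22.9, 26.3, 33.5 and 35.1 CPM in the libraries labelled Mertk knockdown, against 25.6, 25.0, 22.8 and 24.9 CPM in wildtype. Of the labelled libraries, 3 were above every wildtype library, and replicate 1 lay within their range. The spread was 5.80 CPM (SD) in labelled knockdown and 1.26 CPM in wildtype (n = 4 each), and the log2 fold change was 0.26 (SE 0.13, adjusted p = 0.483 by edgeR). The row of Mir33, a microRNA gene inside Srebf2, held 0 or 1 count in each library; mature microRNAs are not captured by poly(A) selection.

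The libraries labelled Mertk knockdown differed among themselves in a like way for another sterol gene. Stard4, a cytosolic sterol carrier chosen after its values were seen, was at 6.11, 5.36, 10.04 and 10.3 CPM in labelled knockdown, against 6.48, 5.31, 3.68 and 4.97 CPM in wildtype (adjusted p = 0.331 by edgeR). In both Srebf2 and Stard4, labelled replicates 3 and 4 were the highest libraries and labelled replicates 1 and 2 lay near the wildtype values. Summed fibroblast markers divided the labelled group in the same place, at 766, 624, 1110 and 1122 CPM, against 622, 1715, 583 and 1090 CPM in wildtype. In the summed atrial markers labelled replicate 4 stood apart instead. They were at 205, 339, 495 and 2041 CPM in labelled knockdown, against 341, 2356, 863 and 1128 CPM in wildtype. Both sums were highest in wildtype replicate 2, and the part of these cells in the division was not tested. Insig1 did not follow the order of Srebf2 and Stard4, since its highest library was labelled replicate 1. The labels give no reason to divide the labelled group, and no test of this division was made.

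Hmgcs1, the cytosolic HMG-CoA synthase (ENSMUSG00000093930, chromosome 13, 119690379 to 119708260, plus strand), was at 29.2, 26.9, 25.7 and 33.3 CPM in the libraries labelled Mertk knockdown, against 26.2, 22.6, 26.6 and 25.1 CPM in wildtype. Labelled replicate 3 lay inside the wildtype range and the other 3 labelled libraries above it. On the log2 scale the difference was 0.20 (SE 0.10, 95% interval −0.03 to 0.43, adjusted p = 0.487 by edgeR).

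Idi1 and Fdps carry the isoprenoid steps. Idi1, the isomerase of isopentenyl diphosphate (ENSMUSG00000058258, chromosome 13, 8885501 to 8892451, plus strand), was at 5.19, 4.62, 5.16 and 5.58 CPM in the libraries labelled Mertk knockdown, against 3.91, 2.72, 3.63 and 5.34 CPM in wildtype. The labelled libraries were close together, and wildtype replicate 4 lay among them while the other 3 wildtype libraries lay below (log2 fold change 0.40, SE 0.20, adjusted p = 0.481 by edgeR). A processed pseudogene with its own row, Gm13502, is identical to Idi1 over 684 bases and held 13 to 31 counts against 180 to 393 for Idi1, so reads may be shared between them. Fdps, which makes farnesyl diphosphate for sterols and for protein prenylation (ENSMUSG00000059743, chromosome 3, 89093588 to 89101959, minus strand), was at 6.33, 8.16, 9.06 and 8.31 CPM in labelled knockdown, against 6.61, 7.36, 8.81 and 7.28 CPM in wildtype. Its groups overlapped throughout (log2 fold change 0.08, SE 0.15, adjusted p = 0.873 by edgeR). Several pseudogenes are near-identical to it, among them Gm3571 with 98.9% identity over 1062 bases and 25 to 82 counts, and its level is uncertain to that extent.

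Fdft1, squalene synthase, which commits farnesyl diphosphate to sterols (ENSMUSG00000021273, chromosome 14, 63145150 to 63179578, minus strand), was the 1 gene of the 8 with a lower mean in the libraries labelled Mertk knockdown. It was at 28.3, 33.9, 35.2 and 30.3 CPM there, against 50.6, 21.8, 45.8 and 35.2 CPM in wildtype. The wildtype libraries held both the highest values and the lowest one, and all 4 labelled libraries lay between them (log2 fold change −0.26, SE 0.23, 95% interval −0.77 to 0.24, adjusted p = 0.699 by edgeR). Single wildtype libraries moved this value, to −0.10 without wildtype replicate 1 (adjusted p = 0.917 by edgeR) and −0.45 without wildtype replicate 2 (adjusted p = 0.214 by edgeR). It was −0.63 among the 4 libraries with hepatocyte markers over 200 CPM and −0.66 among the 5 over 100 CPM. With the hepatocyte covariate it was −0.72 (adjusted p = 0.427 by edgeR). Fdft1 thus lay farther from 0 in these fits and Insig1 nearer to it. The last 774 bases of Fdft1 overlap the end of Ctsb, the gene of a lysosomal protease on the opposite strand, at chromosome 14, 63145150 to 63145923. Ctsb held 5.73 to 19.9 times the counts of Fdft1, and the sources used here do not state whether the authors counted by strand, so reads of Ctsb may enter the Fdft1 row. Ctsb was at 354, 329, 371 and 347 CPM in labelled knockdown, against 290, 433, 295 and 403 CPM in wildtype (log2 fold change −0.02, adjusted p = 0.976 by edgeR). In wildtype the order of the libraries was the reverse of that of Fdft1, with replicate 1 the lowest for Ctsb and the highest for Fdft1.

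Sqle and Lss, the enzymes that turn squalene into lanosterol, were the lowest of the 8. Sqle, the oxygen-dependent squalene epoxidase (ENSMUSG00000022351, chromosome 15, 59315077 to 59331192, plus strand), was at 1.48, 1.21, 1.52 and 2.13 CPM in the libraries labelled Mertk knockdown, against 1.04, 1.15, 0.52 and 2.68 CPM in wildtype. These rest on 30 to 197 counts. Both the lowest and the highest of the 8 libraries were wildtype, replicates 3 and 4, and the interval of the log2 fold change was −0.75 to 1.21, so that differences within it were not detectable here (log2 fold change 0.23, SE 0.44, adjusted p = 0.887 by edgeR). The value turned to −0.04 without wildtype replicate 3 and was 0.81 without wildtype replicate 4, 0.06 without labelled replicate 4 and 0.90 with the hepatocyte covariate, with adjusted p of 0.449 to 0.987 by edgeR over these fits. Lss, lanosterol synthase (ENSMUSG00000033105, chromosome 10, 76531588 to 76557138, plus strand), was at 2.87, 3.23, 3.21 and 3.46 CPM in labelled knockdown, against 2.46, 3.50, 3.12 and 2.77 CPM in wildtype. The groups overlapped and the log2 fold change was 0.11 (SE 0.18, adjusted p = 0.866 by edgeR).

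**Figure D3:**
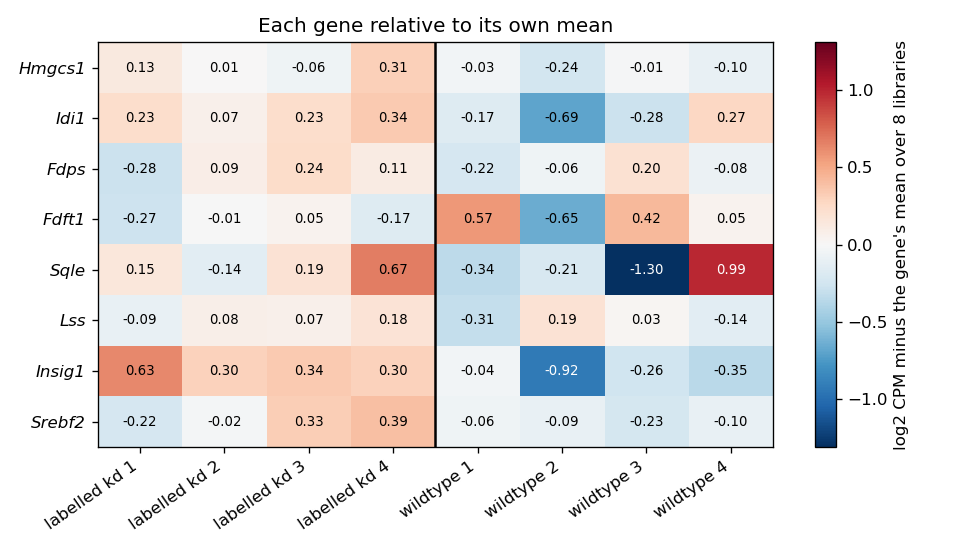
Log2 CPM of each of the 8 genes in each library minus the gene's mean over the 8 libraries, labelled Mertk knockdown left of the line and wildtype right of it. Wildtype replicate 2 is lowest for Insig1 (−0.92), Idi1 (−0.69), Fdft1 (−0.65) and Hmgcs1 (−0.24) and highest for Lss (0.19), and Sqle ranges from −1.30 to 0.99 within wildtype.

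The 8 genes did not share 1 order of libraries. In labelled replicates 3 and 4, 7 of the 8 were above their own mean over the libraries, as the map of centred values shows, and 4 and 5 were in labelled replicates 1 and 2. In wildtype the number was 1 in each of replicates 1 and 2, and 3 in each of replicates 3 and 4. Averaged over the 8 genes, the centred log2 CPM was highest in labelled replicate 4 (0.27) and lowest in wildtype replicate 2 (−0.33), while wildtype replicate 4 (0.07) was above labelled replicates 1 (0.03) and 2 (0.05). The genes whose profile over the 8 libraries was nearest to this average, among 12383 with at least 1 CPM, were H2bc6, Mvd, Smtn, Tigd2, Mmadhc and Vamp1. Their root mean square differences from it were 0.0364 to 0.0737 on the log2 scale. The 8 genes were not candidates, and each lay farther from their own average, at 0.128 (Hmgcs1) to 0.549 (Sqle). Of the 6 nearest, Mvd, the mevalonate diphosphate decarboxylase, is an enzyme of the same pathway. Shared regulation was not tested.

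Compared per length in deposited FPKM (fragments per kilobase of gene and depth), over all 8 libraries, Fdft1 had the highest level (median 7.73, range 4.92 to 11.0 FPKM). It was followed by Hmgcs1 (5.16), Insig1 (4.54), Srebf2 (3.25), Fdps (1.69), Idi1 (1.25), Lss (0.255) and Sqle (0.214 FPKM). Neighbours in this order overlapped in range over the libraries, other than Srebf2 (2.67 to 4.54) with Fdps (1.33 to 2.00), and Idi1 (0.720 to 1.48) with Lss (0.198 to 0.298 FPKM). The lengths behind the FPKM were longer than the coding transcripts. For Lss the count and FPKM give 11955 bases, whereas its longest coding transcript in GENCODE M21 has 4667, and for Fdps they give 4611 against 1382. Per kilobase of the longest coding transcript, Fdps (median 5.61 CPM per kilobase) stood above Srebf2 (4.99), with overlapping ranges, and the other 6 kept their places.

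Across the whole enzyme chain from acetyl-CoA to cholesterol, 0 of 21 tested genes passed by edgeR and 1 by DESeq2, which called 604 of 30338 genes over all. At an unadjusted p under 0.05, 2 were higher and 1 lower, where 6.11% of all tested genes were higher and 6.32% lower. Of the 21, 14 had a log2 fold change above 0, against 49.9% of all tested genes. The median was 0.17, against 0.00 over all tested genes. The enzyme with the smallest p was Cyp51, the lanosterol demethylase that follows Lss, at 9.49, 9.57, 11.7 and 12.9 CPM in the libraries labelled Mertk knockdown, against 7.60, 7.26, 6.28 and 8.24 CPM in wildtype. Its groups did not overlap (log2 fold change 0.57, SE 0.14, adjusted p = 0.127 by edgeR; DESeq2 adjusted p = 0.0215). Sc5d, a late desaturase, did not overlap either, with 16.4 to 22.3 CPM in labelled knockdown and 12.6 to 14.7 CPM in wildtype (log2 fold change 0.40, adjusted p = 0.197 by edgeR). In the opposite direction, the sterol isomerase Ebp, chosen after its values were seen, was at 5.65 to 8.13 CPM in labelled knockdown and 8.28 to 9.63 CPM in wildtype (log2 fold change −0.37, adjusted p = 0.297 by edgeR). Over the 21 genes the groups did not overlap for 2 higher and 1 lower gene, where 8.07% of tested genes did not overlap in either direction.

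**Figure D4:**
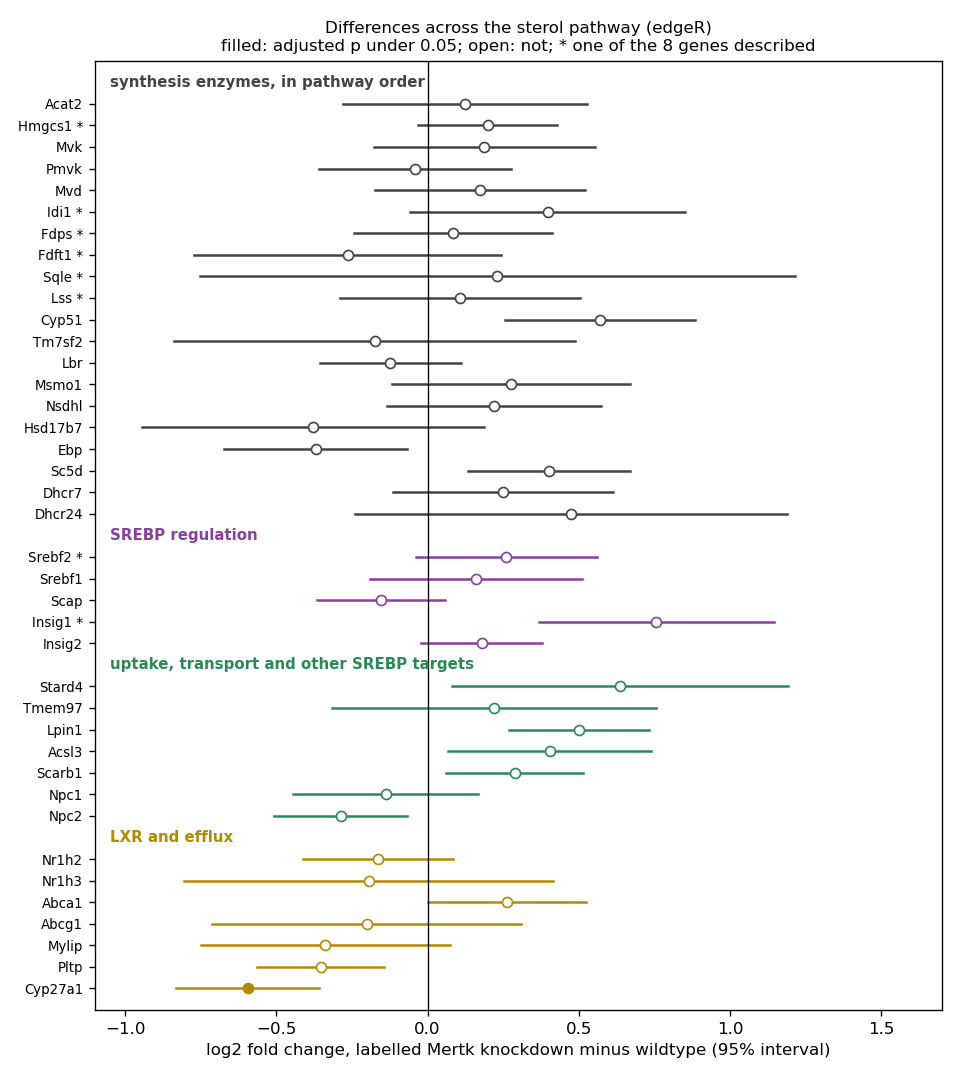
Log2 fold changes of labelled Mertk knockdown minus wildtype with 95% intervals (edgeR, 4 libraries each) for a selection of the enzymes, in pathway order, and of the SREBP regulators, uptake genes and efflux genes. The filled point, Cyp27a1 at −0.59, is the gene drawn that passed across all genes; Insig1 is at 0.76 and Fdft1 at −0.26.

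Of the genes of SREBP processing and sterol sensing, a list that holds Insig1 and Srebf2, 0 of 15 tested genes passed by edgeR and 1 by DESeq2 (Insig1). At an unadjusted p under 0.05, 2 were higher and 1 lower, where 6.11% of all tested genes were higher and 6.32% lower. Of the 15, 8 were above 0, against 49.9% of all tested genes, and the median was 0.01. Scap, the escort protein, had a difference of −0.15 on the log2 scale (SE 0.10, adjusted p = 0.566 by edgeR) and Srebf1, which encodes SREBP1, one of 0.16 (SE 0.16, adjusted p = 0.746 by edgeR). The sign of Srebf1 turned among the libraries with hepatocyte markers, to −0.06 over 200 CPM and −0.02 over 100 CPM. Insig2, the second INSIG gene, was more abundant per length than Insig1, at 13.4 ± 0.612 FPKM in labelled knockdown and 11.7 ± 1.43 FPKM in wildtype (SD, n = 4 each), where Insig1 was at 5.48 ± 0.510 and 3.19 ± 0.723 FPKM. The log2 fold change of Insig2 was 0.18 (SE 0.09, adjusted p = 0.469 by edgeR). Over the 15 genes the groups did not overlap for 2 higher and 1 lower gene, against 4.18% and 3.9% of all tested genes. Besides Insig1, Erlin2, a membrane protein of endoplasmic reticulum protein degradation, was higher (24.6 to 29.4 CPM in labelled knockdown, 19.9 to 22.8 CPM in wildtype, adjusted p = 0.215 by edgeR). Ufd1, chosen after its values were seen, was lower (26.42 to 27.90 CPM in labelled knockdown, 27.92 to 33.80 CPM in wildtype, adjusted p = 0.350 by edgeR).

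Genes of cholesterol uptake and transport and other SREBP targets had 0 of 10 passing by edgeR and 1 by DESeq2. Of the 10, 7 were above 0, against 49.9% of all tested genes, and the median was 0.35. At an unadjusted p under 0.05, 5 were higher and 1 lower, where 6.11% of all tested genes were higher and 6.32% lower. The groups did not overlap for 3 higher genes and 1 lower one, against 4.18% and 3.9% of all tested genes. Lpin1, a phosphatidate phosphatase and SREBP target, was at 182, 181, 141 and 181 CPM in the libraries labelled Mertk knockdown, against 114, 127, 120 and 123 CPM in wildtype. All labelled libraries were higher (log2 fold change 0.50, SE 0.10, adjusted p = 0.0769 by edgeR; DESeq2 adjusted p = 0.00217). By edgeR it passed without labelled replicate 3 (adjusted p = 0.0435), the lowest of the labelled libraries. Npc2, which carries cholesterol out of lysosomes, had a difference of −0.29 on the log2 scale (SE 0.10, adjusted p = 0.261 by edgeR). Of 15 genes of fatty acid synthesis, 0 passed by edgeR and 1 by DESeq2, with a median of 0.05 and, at an unadjusted p under 0.05, 2 higher and 1 lower. Scd1, the stearoyl-CoA desaturase, was at 19.0 to 35.1 CPM in labelled knockdown and 16.4 to 18.3 CPM in wildtype (log2 fold change 0.64, adjusted p = 0.178 by edgeR; DESeq2 adjusted p = 0.0334), and Mlxipl, the carbohydrate-responsive factor ChREBP, had 0.51 (adjusted p = 0.248 by edgeR).

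The gene of these lists that passed across all genes lay on the sterol removal side. Of 14 genes of the liver X receptor (LXR) and sterol efflux, 1 fell and 0 rose, where 0.371% of all tested genes fell and 0.275% rose. At an unadjusted p under 0.05, 1 of the 14 was higher and 2 were lower, where 6.11% of all tested genes were higher and 6.32% lower. Of the 14, 11 had a log2 fold change below 0, against 8913 of all 17787 tested genes, and the median was −0.18. Cyp27a1, the mitochondrial enzyme that hydroxylates the cholesterol side chain, fell to 18.1, 18.4, 22.0 and 17.0 CPM in the libraries labelled Mertk knockdown, against 28.5, 25.3, 29.6 and 30.6 CPM in wildtype. The groups did not overlap (log2 fold change −0.59, SE 0.11, adjusted p = 0.0428 by edgeR). The call held in 6 of 20 alternatives. It was lost without labelled replicate 1, 2 or 4 or without wildtype replicate 3 or 4 (adjusted p of 0.102 to 0.128), and among the 5 libraries with hepatocyte markers over 100 CPM (−0.59, adjusted p = 0.305) or the 4 over 200 CPM (−0.54, adjusted p = 0.489). It was also lost with upper quartile factors (adjusted p = 0.0578), the 3 limma settings (0.0692 to 0.229), the replicate block (0.1235) and the atrial (0.0887) and hepatocyte (0.267) covariates. The log2 fold changes in these fits were −0.52 to −0.61. Of 12 macrophage markers, 11 had a log2 fold change below 0, against 8913 of all 17787 tested genes, and 0 passed by edgeR. At an unadjusted p under 0.05, 6 of the 12 were lower, where 6.32% of all tested genes were. Their sum ran from 247 to 302 CPM in labelled knockdown and from 292 to 446 CPM in wildtype. In wildtype replicates 1 and 3 it was 294 and 292 CPM, within the labelled range. The part of macrophages in the result was not tested. Of 12 genes of the isoprenoid branches, 0 passed by edgeR or DESeq2, and the median was 0.01. At an unadjusted p under 0.05, 1 was higher and 2 lower, beside the same 6.11% and 6.32% of all tested genes. Pdss2, of the coenzyme Q side chain, had 0.49 (adjusted p = 0.171) and Fntb, a subunit of protein farnesyltransferase, −0.44 (adjusted p = 0.272).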

How the data were processed

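Per the file headers, the deposited table gives whole-number read counts per gene and FPKM made by the authors for each of the 8 libraries. The submitters' processing notes name build mm10 and the tools edgeR, DESeq2, StringTie 2.1.6, HISAT2 2.2.1 and cutadapt 1.9, with no role or order. Per the labels' protocols, RNA with poly(A) was selected and the second strand removed through dUTP.

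The deposited counts were fitted with the edgeR 4.0.16 quasi-likelihood test (R 4.3.3, robust, two-sided, TMM, filterByExpr, no covariate) over all 17787 tested genes, and p-values were adjusted over all of them by Benjamini-Hochberg. SE is the log2 fold change divided by the square root of F. The procedure was tested on simulated data. Alternatives used DESeq2 1.42.0 and limma 3.58.1 on log2(FPKM + 1) or log2(FPKM + 0.1).

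The 8 genes, the pathway lists and the tests were chosen with earlier results of these data known. Named genes are the 8, Mertk, Insig2, Scap, Srebf1, per list the called genes or else the 2 with the smallest p, and the 6 nearest profiles; others are marked in the text, and some genes of the lists are counted but not reported singly here. Spring1 was found under its older symbol. Near-identical copies were sought with megablast in GENCODE M21 transcripts. Library pairs within a group differed by more than counting error, with chi-square values of 37.89 to 198.7 per degree of freedom, so none was counted as a duplicate.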

Additional observations from a re-analysis of the deposited data

Results flagged for a closer look

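Of 56 groups tested (each named gene in each group of 4 libraries), 2 held a library that stood apart from the other 3 by Dixon's criterion. Chance meets it in about 1 in 20 groups, so 2 of 56 is no more than chance gives. Insig1 was at 21.74 CPM in labelled Mertk knockdown replicate 1, with the other labelled libraries at 17.34 to 17.83 CPM. Without that library the log2 fold change of Insig1 was 0.67 (edgeR adjusted p = 0.224). Lpin1 was at 141.1 CPM in labelled Mertk knockdown replicate 3, with the other labelled libraries at 180.7 to 181.5 CPM.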

How the results depend on the processing

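The 8 genes had 0 calls in each alternative other than DESeq2 (1) and leaving out single libraries (0 to 1, the 1 without wildtype replicate 1). Of the 8, 7 had a log2 fold change above 0 in each alternative, except 6 without wildtype replicate 3, where Sqle was below 0. Over the 20 alternatives the log2 fold changes ran from 0.11 to 0.36 for Srebf2, 0.07 to 0.25 for Hmgcs1, 0.23 to 0.59 for Idi1, 0.02 to 0.28 for Fdps, 0.03 to 0.38 for Lss, −0.04 to 0.90 for Sqle, −0.72 to −0.10 for Fdft1 and 0.42 to 0.88 for Insig1. Over all genes, 115 calls became 604 with DESeq2, 68 with log2(FPKM + 1), 70 with log2(FPKM + 0.1), 21 with log2(FPKM + 1) and no filter, 14 with the hepatocyte covariate, 57 with the atrial covariate, 34 in the 4 libraries over 200 CPM of hepatocyte markers, 42 in the 5 over 100 CPM (added after seeing the data, because labelled replicate 4 lay just below 200), and 44 (without labelled replicate 3) to 265 (without wildtype replicate 1) when single libraries were left out; each single omission other than wildtype replicate 2 moved the count by over 1.5 times. DESeq2 gave 1 call each for synthesis enzymes, SREBP processing, uptake and fatty acid synthesis, where the edgeR count was 0; leaving out single libraries gave 0 to 1 for SREBP processing and for uptake. The LXR list had 0 calls with upper quartile factors, each limma setting, either covariate and either set of hepatocyte-marker libraries, and 0 to 1 without single libraries. The sign of Srebf1 turned with the hepatocyte covariate (−0.05616), over 200 CPM (−0.05889) and over 100 CPM (−0.02253); the cause was not tested.

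With the replicate number as a block there were 24 calls over all genes and 0 in the LXR list. No clear pairing by number was seen: deviations of same-numbered libraries correlated at −0.01 to 0.18, and 2 of 4 libraries matched their own number best. So few libraries cannot exclude a pairing. Sqle, at 30 to 197 counts, is limited most by depth.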
